A study of Mus musculus with 17 samples.

Results

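The conjugation enzymes described here are the glutathione S-transferases (Gst and Mgst), the UDP-glucuronosyltransferases (Ugt) and the cytosolic sulfotransferases (Sult) of the mouse. Members were all genes whose symbol belongs to these families, pseudogenes left out, with a count above 0 in at least 1 library. There were 64 of them, 25 Gst, 19 Ugt and 20 Sult, among 29594 liver genes and 15632 hepatocyte genes with a count. All 64 had a count in liver and 57 in hepatocytes, and 3 further symbols (Sult1c1, Ugt2a1 and Ugt2a2) had no count in any library. RNA was sequenced in whole liver of Samd8-knockout (SMSrKO) and wild-type (WT) mice, 4 libraries each, after 16 weeks of a high-fat diet with fructose in the drinking water. It was also sequenced in hepatocytes isolated with collagenase from mice aged 2 months, with 3 libraries each of Sms1/Sms2/Smsr triple knockout (tKO), Sms1/Sms2 double knockout (dKO) and WT. Sms1 and Sms2 (Sgms1 and Sgms2 in the files) encode sphingomyelin synthases, and Smsr (Samd8) encodes their relative SMSr. The labels do not give the promoter of any Cre, whether the deletions were confined to hepatocytes, or the sex of the mice.

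Conjugation makes lipophilic compounds more water-soluble, so that they can leave the hepatocyte in bile or blood. Glutathione S-transferases add glutathione to electrophiles, UDP-glucuronosyltransferases add glucuronic acid from UDP-glucuronate to bilirubin, steroids and drugs, and sulfotransferases add sulfate from PAPS to hydroxyl groups of steroids, bile acids and phenols. Many of these genes respond to NRF2 (Nfe2l2), CAR (Nr1i3), PXR (Nr1i2) or AHR, and in mouse liver several Sult2a and Sult3a1 RNAs are known to be more abundant in females.

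Depth was 9221488 to 9665309 expected counts per hepatocyte library and 24391627 to 47351126 counts per liver library. The labels give 3 mice per hepatocyte group but do not tie each library to an animal. The p-values therefore rest on the spread between libraries alone, part of which can be technical. That spread, as edgeR's common biological coefficient of variation, was 3.52% in hepatocytes and 20.3% in liver. The targeted genes were still counted in the libraries labelled as knockouts. Samd8 had 97.6 to 103 CPM (counts relative to the scaled library total, ×1e6) in tKO libraries, against 66.0 to 73.1 in WT hepatocytes, and 50.3 to 59.0 CPM in SMSrKO livers, against 38.0 to 51.7 in WT livers. Sgms2 was lower in hepatocytes, with 144 to 157 CPM in tKO, 133 to 164 in dKO and 175 to 191 in WT libraries, while Sgms1 was higher in both mutants than in WT. Gene counts can include reads outside a deleted part, and where the deletions lie is not given in the sources used here. Since the labels' protocol names sWAT for the SMSrKO experiment, tissue was checked: 8 hepatocyte markers summed to at least 59601 CPM in every liver library and 5 adipocyte markers to at most 2.55 CPM.

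Markers of other liver cells moved with the hepatocyte groups. The 8 endothelial markers summed to 81.3 to 84.7 CPM in tKO, 139 to 156 in dKO and 22.3 to 22.7 in WT libraries, with Vwf at 0 in WT. The 8 macrophage markers summed to 364 to 385, 318 to 337 and 120.4 to 135 CPM in tKO, dKO and WT, with C1qc at 0 in WT. The 8 stellate cell markers summed to 31.9 to 36.0 CPM in tKO, 50.4 to 55.9 in dKO and 15.8 to 19.7 in WT, with Lrat at 0 in WT, and the 7 cholangiocyte markers to 261 to 276, 385 to 407 and 264 to 274 CPM in tKO, dKO and WT, with Krt7 at 0 in tKO and Cftr at 0 in dKO and WT. The 8 hepatocyte markers summed to 43578 to 45327 CPM in tKO, 48765 to 49749.8 in dKO and 54343 to 56421 in WT libraries. Of these 8, 2 were higher and 4 lower in tKO than in WT, and 2 higher and 2 lower in dKO. Of the 7, 5 and 4 endothelial, macrophage and stellate markers tested, 6, 5 and 3 were higher in tKO and 7, 5 and 3 in dKO than in WT. Of 4 cholangiocyte markers tested, 1 was higher and 2 lower in tKO and 1 higher and 1 lower in dKO. The part of these cells in the results below was not tested. In these bulk samples, fewer cells of a type and less RNA per cell cannot be told apart.

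Per gene length, a handful of Gst genes made up most of the conjugation RNA in hepatocytes. Over the 9 libraries Gstp1 averaged 1902 FPKM (fragments normalised to gene length and depth), Mgst1 1191 and Gstm1 1121, followed by Gsta1 at 486 and Gsta3 at 240.3 FPKM. The order of Gstm1 and Mgst1 turned between groups. Gstm1 had 1399.5 to 1497 FPKM in tKO, 1002 to 1053 in dKO and 855 to 911 in WT libraries, and Mgst1 had 1139 to 1183, 1172 to 1205 and 1190.5 to 1273 FPKM in the same order of groups, so Gstm1 was the higher in tKO and Mgst1 in dKO and WT. Gst genes held 85.9% of all member FPKM in tKO, 83.5% in dKO and 82.8% in WT hepatocytes, Ugt genes 12.2%, 13.6% and 14.3%, and Sult genes 1.87%, 2.91% and 2.91% in the same order of groups. The leading Ugt genes were Ugt2b34 (184 FPKM), Ugt2b5 (174) and Ugt1a1 (127), each averaged over the 9 libraries. Among Sult genes Sult1a1 was the highest in the mutants (69.1 FPKM in tKO and 81.2 in dKO, against 63.0 in WT), while in WT Sult2a8 averaged 68.6 FPKM and the library ranges of both genes overlapped there. In liver the order differed. Mgst1 (1969 TPM, a length-normalised share of transcripts) and Gstm1 (1129) led, Gstz1 (778) was the third, and Sult2a2 (648) was the fourth, while Gstp1 averaged 353 TPM. The experiments differ in diet, age, cell isolation and processing, so no test was made between them.

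In hepatocytes, more Gst genes rose than fell and more Ugt genes fell than rose in both mutants, while 7 of 9 Sult genes fell in tKO and as many rose as fell in dKO. Of 47 members tested, 16 rose and 21 fell in tKO against WT (adjusted p under 0.05, edgeR quasi-likelihood test, adjusted over all 11471 genes tested), where 25.6% of all tested genes rose and 21.8% fell. In dKO against WT 13 rose and 18 fell, where 24.0% of all genes rose and 20% fell. These comparisons share the WT libraries. In tKO against dKO 14 rose and 15 fell, where 14.3% of all genes rose and 15.2% fell. Groups whose libraries did not overlap were common in hepatocytes. In tKO against WT, 16 members lay wholly higher and 20 wholly lower, as did 3193 and 2932 of all 11471 genes. In dKO against WT these were 15 and 16 members, and 3068 and 2881 of all genes. For tKO against dKO they were 15 and 16 members, and 2248 and 2314 of all genes. Changes of at least 2-fold with an adjusted p under 0.05 numbered 4 higher and 6 lower members in tKO against WT (6.06% and 1.76% of all genes), 3 higher and 4 lower in dKO against WT (6.40% and 1%), and 2 higher and 4 lower in tKO against dKO (0.898% and 1.82%).

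By superfamily, 12 of 22 tested Gst genes rose and 5 fell in tKO against WT, with a median log2 fold change of 0.17, while 7 rose and 4 fell in dKO against WT, with a median of 0.03. Of 16 Ugt genes, 4 rose and 9 fell in tKO (median −0.23) and 3 rose and 11 fell in dKO (median −0.24). Of 9 Sult genes, 0 rose and 7 fell in tKO (median −0.93), and 3 rose and 3 fell in dKO (median 0.02). The median over all tested genes was −0.004 in tKO and −0.01 in dKO. Against dKO, tKO had 10 Gst genes higher and 2 lower, 4 Ugt genes higher and 6 lower, and 0 Sult genes higher and 7 lower.

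**Figure D1:**
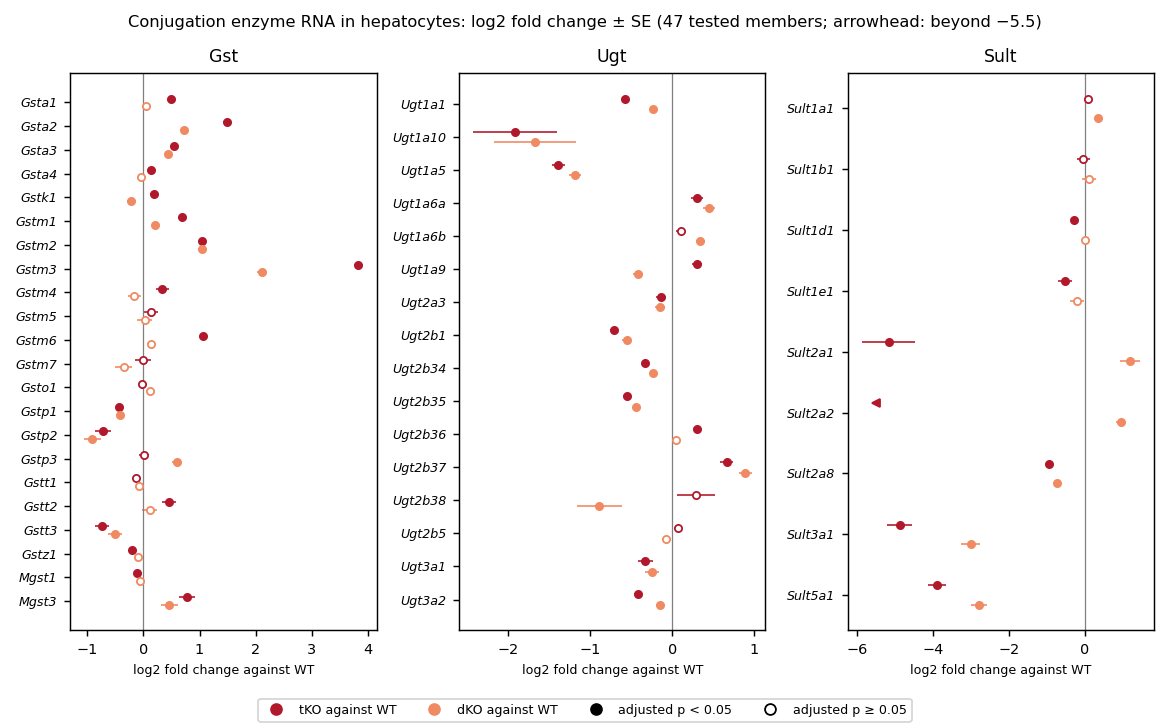
Log2 fold change ± SE against WT hepatocytes for the 47 tested members, tKO (dark red) and dKO (orange), 3 libraries per group, filled where the adjusted p is under 0.05; each panel has its own x axis. Gstm3 lies farthest to the right, at 3.83 in tKO and 2.12 in dKO, and Sult2a2, Sult2a1, Sult3a1 and Sult5a1 lie farthest to the left in tKO; the arrowhead marks Sult2a2, which has 0 counts in tKO.

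The mu class (Gstm) had the largest rises. Its enzymes conjugate glutathione to epoxides, quinones and lipid peroxidation products, and its 7 genes lie together on chromosome 3. Gstm3 (chr3:107963696-107969283, minus strand, GRCm38) had 155, 170 and 156 CPM in tKO libraries, 52.0, 45.6 and 49.9 in dKO libraries and 11.7, 9.19 and 12.9 in WT libraries. Every tKO library was above every dKO library, and every dKO library above every WT library. Gstm3 was 14.2-fold higher in tKO than in WT (log2 fold change 3.83 ± 0.0776 SE, adjusted p = 1.47e-57), 4.36-fold higher in dKO than in WT (2.12 ± 0.0919, adjusted p = 1.81e-34) and 3.26-fold higher in tKO than in dKO (1.71 ± 0.0596, adjusted p = 2.37e-40), by edgeR.

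Mu class genes resemble each other, which bears on how reads were divided among them. The same 60 coding bases (positions 292 to 351 of each coding sequence, the fifth annotated exon) are shown for Gstm3 and for the 3 relatives that changed most beside it, with capitals at the bases that differ from Gstm3.
Gstm3: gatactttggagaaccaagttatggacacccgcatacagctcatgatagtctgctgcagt
Gstm1: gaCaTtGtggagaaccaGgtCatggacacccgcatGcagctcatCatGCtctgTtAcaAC
Gstm2: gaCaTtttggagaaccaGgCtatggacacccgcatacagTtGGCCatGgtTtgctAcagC
Gstm6: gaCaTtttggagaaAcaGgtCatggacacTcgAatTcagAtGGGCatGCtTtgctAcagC
In this window Gstm1 and Gstm2 differ from Gstm3 at 13 bases each and Gstm6 at 18. Over the whole coding sequence Gstm3 is 89.5% identical to Gstm1, 84.8% to Gstm2 and 85.0% to Gstm6, and its longest identical runs are 112 bases with Gstm1 and 125 with Gstm6. Reads within such runs cannot be placed in a single gene, and Gstm1 was more abundant than Gstm3 in every library, so the Gstm3 values carry that uncertainty. The windows lie on the minus strand (GRCm38) at chr3:107967584-107967643 for Gstm3, chr3:108016337-108016396 for Gstm1, chr3:107985058-107985117 for Gstm2 and chr3:107942142-107942201 for Gstm6.

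The other mu genes did not move in 1 pattern. Gstm6 had 93.0, 101 and 98.7 CPM in tKO, 48.1, 49.4 and 55.4 in dKO and 46.0, 46.7 and 46.4 in WT libraries. It was 2.10-fold higher in tKO than in WT (1.07 ± 0.0615, adjusted p = 7.73e-27, edgeR), while dKO against WT did not pass (0.14 ± 0.0675, adjusted p = 0.0948). Gstm2, by contrast, had 97.7, 104 and 102 CPM in tKO and 97.0, 100.1 and 105 in dKO libraries, against 50.6, 46.9 and 49.6 in WT libraries. Both mutants were about 2-fold above WT for Gstm2 (log2 1.05 ± 0.0590 in tKO, 1.04 ± 0.0593 in dKO), and tKO against dKO was 0.01 ± 0.0532. Gstm1, the most abundant mu gene, had 1725, 1842 and 1761 CPM in tKO, 1246, 1287 and 1311 in dKO and 1144, 1125 and 1068 in WT libraries. It rose by 0.68 ± 0.0355 on the log2 scale in tKO and by 0.20 ± 0.0356 in dKO. Gstm4 rose in tKO against WT (0.34 ± 0.115), a call lost in DESeq2 (adjusted p = 0.0518) and without WT library 3 (0.0713) or tKO library 9 (0.055). Gstm5 and Gstm7 passed in no hepatocyte comparison. Summed over the 7 genes, mu class RNA was 1811 ± 61.9 FPKM in tKO, 1237 ± 31.8 in dKO and 1015 ± 29.6 in WT hepatocytes (SD, n = 3 each).

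**Figure D2:**
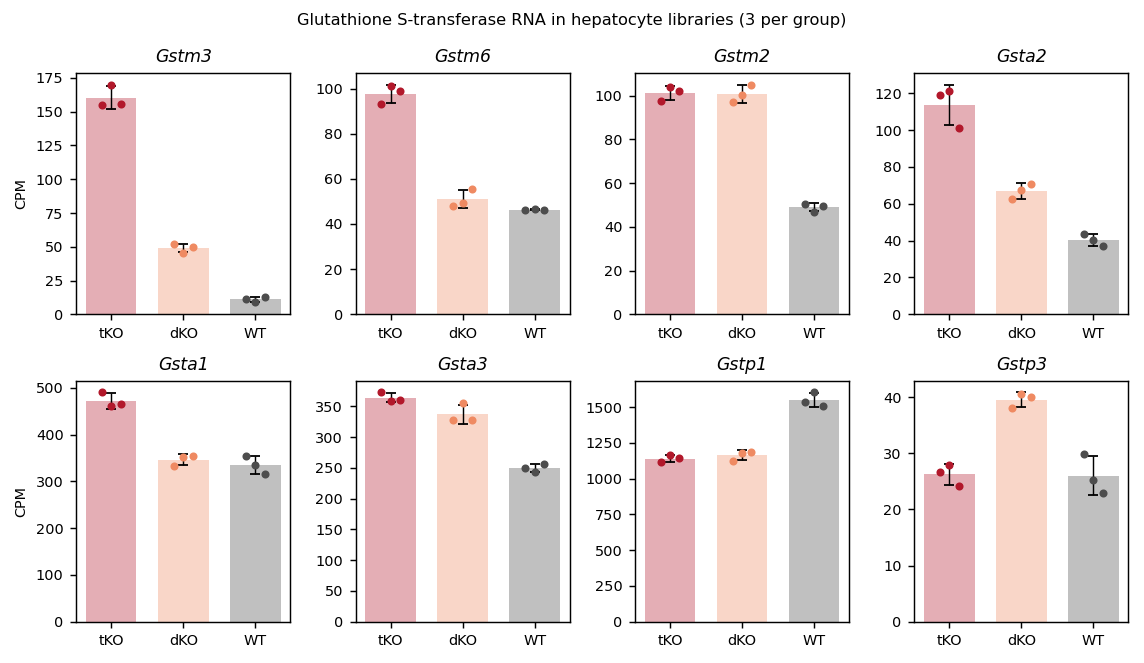
CPM of 8 glutathione S-transferase genes in hepatocytes, tKO, dKO and WT from left to right; points are libraries, bars are means and error bars are SD (n = 3 per group). Gstm3 and Gsta2 step down from tKO through dKO to WT, Gstm6 is high in tKO beside nearly equal dKO and WT levels, Gstm2 is alike in both mutants, and Gstp1 is lower in both.

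All 4 alpha class (Gsta) genes rose in tKO against WT and also in tKO against dKO, and 2 of them rose in dKO against WT. Alpha class enzymes reduce lipid hydroperoxides and conjugate products of lipid peroxidation and aflatoxin epoxide. Gsta2 (chr9:78331018-78355788) had 119, 121 and 101 CPM in tKO, 62.4, 67.6 and 71.0 in dKO and 43.6, 40.2 and 37.1 in WT libraries. The 3 groups did not overlap, and Gsta2 was 2.82-fold higher in tKO than in WT (1.49 ± 0.0661, adjusted p = 1.18e-30, edgeR), 1.66-fold higher in dKO than in WT and 1.69-fold higher in tKO than in dKO. Its neighbour Gsta1 had 491, 461 and 465 CPM in tKO, 333, 353 and 354 in dKO and 355, 336 and 315 in WT libraries. Gsta1 rose in tKO (0.49 ± 0.0407) and did not pass in dKO (0.05 ± 0.0414, adjusted p = 0.356).

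Gsta1 and Gsta2 are 97.9% identical over their coding sequences, with a shared run of 196 bases. Positions 449 to 508 of each are shown because they hold 5 of the differences on which separate counting rests, in capitals in both (GRCm38, chr9:78332125-78332184 on the minus strand for Gsta2 and chr9:78241561-78241620 on the plus strand for Gsta1).
Gsta2: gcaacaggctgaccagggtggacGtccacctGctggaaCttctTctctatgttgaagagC
Gsta1: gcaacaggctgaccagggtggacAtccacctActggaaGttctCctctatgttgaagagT
Summed, the pair reached 586 ± 21.9 CPM in tKO, 414 ± 16.4 in dKO and 375 ± 23.6 in WT hepatocytes (SD, n = 3 each). The sum rose by 0.64 ± 0.0405 in tKO and by 0.14 ± 0.0411 in dKO against WT on the log2 scale (edgeR adjusted p = 3.32e-24 and 0.0036).

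Gsta3, the alpha gene known in mice for detoxifying aflatoxin, had 373, 359 and 360.4 CPM in tKO and 328, 355 and 328 in dKO libraries, against 249, 243 and 256 in WT libraries. It rose in tKO (0.55 ± 0.0411) and in dKO (0.43 ± 0.0414), with both mutants above every WT library. Gsta4, known for conjugating 4-hydroxynonenal, rose by 0.14 ± 0.0480 in tKO, and dKO against WT was −0.04 ± 0.0488 and did not pass. The letters TGACNNNGC, the core of the antioxidant response element through which NRF2 acts, were searched on both strands from 250 bases before to 50 after each RefSeq start. They were found in 4 of the 68 windows of the 56 members with a window (those of Gsta3, Gstm5, Gstm7 and Mgst1). Of all 32851 windows, 12.4% held them. The window of Gsta3 (RefSeq, GRCm38.p6, chr1:21240335-21240634, plus strand) holds the match, in capitals, with its first base 121 bases before the start. It is shown as the one alpha gene with a match.
Gsta3 promoter: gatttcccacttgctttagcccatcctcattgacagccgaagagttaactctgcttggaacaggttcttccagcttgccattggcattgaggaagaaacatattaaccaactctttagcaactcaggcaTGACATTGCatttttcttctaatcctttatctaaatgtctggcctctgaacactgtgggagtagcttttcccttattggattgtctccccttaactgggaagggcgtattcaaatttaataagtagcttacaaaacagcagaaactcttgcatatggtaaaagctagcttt

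The pi class (Gstp) summed to 1766 ± 43.3 FPKM in tKO, 1789.9 ± 51.3 in dKO and 2338 ± 74.3 in WT hepatocytes (SD, n = 3 each). It was thus above the mu class in dKO and WT but not in tKO, and its main gene went the other way. Gstp1 had 1114, 1166 and 1143 CPM in tKO and 1123, 1177 and 1189.7 in dKO libraries, against 1535, 1605 and 1507 in WT libraries. Both mutants lay below every WT library, Gstp1 fell by 0.44 ± 0.0352 in tKO and by 0.41 ± 0.0352 in dKO, and tKO against dKO was −0.03 ± 0.0354. Gstp2 also fell in both (−0.72 ± 0.145 in tKO, −0.91 ± 0.150 in dKO), at 7.81 ± 2.31, 6.87 ± 0.380 and 12.9 ± 0.573 CPM in tKO, dKO and WT (SD, n = 3 each). The pair is 98.1% identical in its coding sequence and the last 303 bases are the same, so Gstp2 values are uncertain. Positions 271 to 330, just before and across the 5 last differences, are shown with those bases in capitals (GRCm38, minus strand, chr19:4036694-4036753 for Gstp1 and chr19:4040988-4041047 for Gstp2).
Gstp1: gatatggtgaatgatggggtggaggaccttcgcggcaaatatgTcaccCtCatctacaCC
Gstp2: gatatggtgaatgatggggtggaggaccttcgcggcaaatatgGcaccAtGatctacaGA
Gstp3 had 26.6, 28.0 and 24.2 CPM in tKO, 38.0, 40.6 and 40.0 in dKO and 29.8, 25.3 and 23.0 in WT libraries. It thus rose in dKO against WT (0.60 ± 0.0835) and fell in tKO against dKO (−0.59 ± 0.0825, adjusted p = 8.67e-09, edgeR), while tKO against WT was 0.01 ± 0.0888.

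Among the remaining glutathione transferases tested, no change reached 2-fold in hepatocytes. Mgst3, a membrane-bound glutathione transferase, had 13, 12.8 and 11.2 CPM in tKO, 8.22, 10.6 and 11.0 in dKO and 7.02, 7.03 and 7.69 in WT libraries, and rose in tKO (0.77 ± 0.143) and dKO (0.46 ± 0.149). Without dKO library 6 the dKO call for Mgst3 was lost (adjusted p = 0.0647). The abundant Mgst1 fell slightly in tKO (−0.12 ± 0.0357) and did not pass in dKO. Of the theta class, Gstt3 fell in tKO (−0.74 ± 0.126) and dKO (−0.50 ± 0.123), Gstt2 rose in tKO (0.46 ± 0.124), and Gstt1 passed in neither. Gstz1, which isomerizes maleylacetoacetate in tyrosine breakdown, fell in tKO (−0.20 ± 0.0496). Gstk1 was higher in tKO (0.19 ± 0.0765) and lower in dKO (−0.22 ± 0.0807) than in WT, and both calls were lost in DESeq2 (adjusted p = 0.104 and 0.0716). The tKO call for Gstk1 was also lost without WT library 1 or 2 or tKO library 7 or 9 (adjusted p = 0.0521 to 0.144), and the dKO call without WT library 1 or 3 or dKO library 4 (0.0645 to 0.1). Gsto1 was lower in tKO than in dKO (−0.14 ± 0.0490), a call lost in DESeq2 (adjusted p = 0.052), with library totals alone (0.0763) and without dKO library 4 (0.0904), dKO library 5 (0.131), tKO library 7 (0.145) or tKO library 9 (0.0538). Against WT it did not pass in dKO (0.11 ± 0.0492, adjusted p = 0.0678), although it did without dKO library 6 (0.0394) and in a fit of these groups alone (0.046).

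The Ugt1a genes of chromosome 1 are built from separate first exons joined to common later exons, so each gene has its own substrate-binding part and all share the part that binds UDP-glucuronate. The first 60 coding bases of 4 genes are shown because only such sequence tells the genes apart, and a stretch of the second exon because all 9 members hold it. No base is singled out by capitals. All lie on the plus strand (GRCm38), at chr1:88212002-88212061 (Ugt1a1), chr1:88166052-88166111 (Ugt1a5), chr1:88138474-88138533 (Ugt1a6a), chr1:88070830-88070889 (Ugt1a9) and chr1:88215044-88215103 (shared exon).
Ugt1a1: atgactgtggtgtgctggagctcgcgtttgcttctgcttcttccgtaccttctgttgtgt
Ugt1a5: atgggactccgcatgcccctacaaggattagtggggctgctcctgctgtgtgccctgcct
Ugt1a6a: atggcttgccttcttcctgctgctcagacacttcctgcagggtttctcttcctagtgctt
Ugt1a9: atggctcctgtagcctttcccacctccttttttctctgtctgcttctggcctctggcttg
Shared exon: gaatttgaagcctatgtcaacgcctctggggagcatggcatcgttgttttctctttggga
Ugt1a1 and Ugt1a9 have an identical run of 740 bases at the ends of their coding sequences, and Ugt1a6a and Ugt1a6b one of 777 bases. The shares of reads given to single Ugt1a genes therefore depend on how the counting divided them.

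As a whole the locus was lower in the mutants. The 9 genes summed to 604, 579 and 579 CPM in tKO, 656, 656 and 665 in dKO and 780.2, 743 and 742 in WT libraries, with no overlap between groups. The sum fell by 0.36 ± 0.0366 in tKO against WT, by 0.20 ± 0.0364 in dKO against WT and by 0.17 ± 0.0367 in tKO against dKO (edgeR adjusted p = 2.46e-14, 4.22e-06 and 0.000201). Ugt1a1, the bilirubin-conjugating enzyme and the bulk of the sum, had 326, 318 and 318 CPM in tKO, 415, 401 and 405 in dKO and 497, 474 and 471 in WT libraries. Its groups did not overlap, and it fell by 0.58 ± 0.0387 in tKO and by 0.24 ± 0.0382 in dKO. Ugt1a5 had 21.9, 23.4 and 28.4 CPM in tKO and 28.6, 28.9 and 27.2 in dKO libraries, against 69.8, 61.5 and 61.9 in WT libraries. Ugt1a5 was 2.62-fold lower in tKO and 2.28-fold lower in dKO than in WT (log2 −1.39 ± 0.0775 and −1.19 ± 0.0762).

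Some other Ugt1a genes rose, not all of them in both mutants. Ugt1a6a and Ugt1a6b, which conjugate planar phenols, rose in dKO (0.45 ± 0.0741 and 0.34 ± 0.0568), and Ugt1a6a also rose in tKO (0.30 ± 0.0748), while Ugt1a6b in tKO was 0.10 ± 0.0577 and did not pass. Ugt1a9 had 112, 99.0 and 100.5 CPM in tKO, 56.8, 65.0 and 68.4 in dKO and 88.3, 85.6 and 80.1 in WT libraries. It was thus higher in tKO (0.30 ± 0.0579) and lower in dKO (−0.42 ± 0.0620) than in WT, and tKO exceeded dKO by 0.71 ± 0.0601 (adjusted p = 7.32e-17, edgeR). The sum of the locus fell, but Ugt1a1 made up the bulk of it. The sum therefore does not test the rises of Ugt1a6a, Ugt1a6b and Ugt1a9. Ugt1a10, at 0.751 ± 0.510 CPM in tKO, 0.892 ± 0.816 in dKO and 2.90 ± 0.558 in WT (SD, n = 3 each), fell in both mutants.

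**Figure D3:**
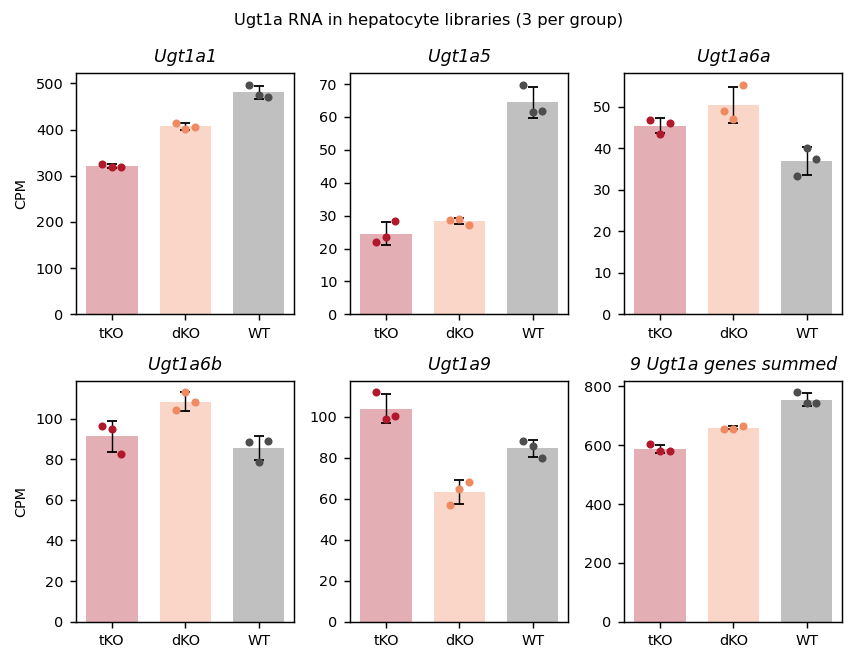
CPM of 5 Ugt1a genes and of the 9 Ugt1a genes summed in hepatocytes, tKO, dKO and WT from left to right; points are libraries, bars are means and error bars are SD (n = 3 per group). Ugt1a1, Ugt1a5 and the sum are lowest or near lowest in tKO and highest in WT, while Ugt1a6a and Ugt1a6b are highest in dKO and Ugt1a9 is highest in tKO.

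The Ugt2 genes, which conjugate steroids, bile acids and drugs, were split between lower and higher. Ugt2b1 had 100.1, 89.0 and 85.8 CPM in tKO and 100.5, 107 and 97.9 in dKO libraries, against 153, 151 and 145 in WT libraries, and fell by 0.71 ± 0.0523 in tKO and by 0.56 ± 0.0519 in dKO. Ugt2b35 fell by 0.56 ± 0.0458 and 0.44 ± 0.0456 in tKO and dKO, and the abundant Ugt2b34 by 0.33 ± 0.0382 and 0.24 ± 0.0381. For these 3 genes every mutant library lay below every WT library, which 2932 of 11471 genes did in tKO and 2881 in dKO. Ugt2b36 rose in tKO (0.30 ± 0.0455), and dKO against WT was 0.04 ± 0.0464. Ugt2a3 fell by 0.14 ± 0.0575 in tKO and by 0.15 ± 0.0579 in dKO, calls that DESeq2 did not make (adjusted p = 0.0769 and 0.0838). For Ugt2a3 they were also lost without WT library 1 or 2 in both, without tKO library 8 in tKO and without dKO library 4 in dKO.

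Ugt2b37 had 59.1, 50.5 and 55.6 CPM in tKO and 66.6, 62.6 and 64.2 in dKO libraries, against 39.5, 29.5 and 35.4 in WT libraries, and rose in both mutants (0.66 ± 0.0754 in tKO, 0.89 ± 0.0741 in dKO). It shares 94.7% of its coding sequence with the more abundant Ugt2b5, which did not pass against WT in either mutant (0.07 ± 0.0420 in tKO, −0.08 ± 0.0424 in dKO), and Ugt2b38 shares 97.0% with Ugt2b5. Ugt2b37, Ugt2b38 and Ugt2b5 summed to 397 ± 19.9 CPM in tKO, 370.2 ± 9.78 in dKO and 359 ± 14.3 in WT hepatocytes (SD, n = 3 each). The sum rose in tKO (0.14 ± 0.0404, adjusted p = 0.00219, edgeR) and did not pass in dKO (0.04 ± 0.0407, adjusted p = 0.418). Ugt2b38 alone, at 0.967 to 6.66 CPM, fell in dKO, a call lost without dKO library 5 (adjusted p = 0.0997). The pair Ugt3a1 and Ugt3a2, known in mammals for using UDP-sugars other than UDP-glucuronate, summed to 134 ± 6.97 CPM in tKO, 158 ± 5.55 in dKO and 178 ± 9.74 in WT and fell by 0.40 ± 0.0482 in tKO and 0.17 ± 0.0476 in dKO.

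Sulfotransferases held the steepest falls. Sult2a2, a hydroxysteroid and bile acid sulfotransferase (chr7:13733505-13779636), had 0 counts in each of the 3 tKO libraries, 17.7, 17.9 and 18.1 CPM in dKO libraries and 10.4, 8.32 and 8.67 in WT libraries. It was thus at least 88.7-fold lower in tKO than in WT and at least 174-fold lower in tKO than in dKO, against a floor of 3 counts over the tKO group (0.103 CPM), with 501 counts in dKO and 252 in WT. In dKO it rose against WT (0.97 ± 0.131, adjusted p = 1.37e-09, edgeR). Sult2a1 had 0, 0 and 0.102 CPM in tKO, 3.74, 3.44 and 4.64 in dKO and 1.43, 2.16 and 1.52 in WT libraries. The single Sult2a1 count in tKO gave a ratio of 49.6 for WT over tKO (95% interval 8.48 to 2000, counting error only). Sult2a1 rose in dKO against WT (1.20 ± 0.273, adjusted p = 0.000157).

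The stretch from position 217 to 276 of the coding sequence shows how alike Sult2a1 and Sult2a2 are and how far Sult2a8 stands from them both, with capitals at the bases that differ from Sult2a1.
Sult2a1: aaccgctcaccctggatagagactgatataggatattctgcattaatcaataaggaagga
Sult2a2: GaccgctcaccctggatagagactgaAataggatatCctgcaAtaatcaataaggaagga
Sult2a8: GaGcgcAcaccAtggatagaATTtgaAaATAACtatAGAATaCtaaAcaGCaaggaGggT
Sult2a2 differs from Sult2a1 at 4 of these bases and Sult2a8 at 24. The windows lie at chr7:13836030-13836089 (Sult2a1, minus strand), chr7:13734827-13734886 (Sult2a2, plus strand) and chr7:14425417-14425476 (Sult2a8, minus strand) in GRCm38. Over the aligned coding sequence Sult2a1 is 97.9% identical to Sult2a2 and 70.5% to Sult2a8. Sult2a1 to Sult2a5, the 5 near-identical genes, summed to 0, 0.104 and 0.102 CPM in tKO, 21.5, 21.7 and 23.0 in dKO and 11.8, 10.5 and 10.2 in WT libraries, so how reads were divided among them does not alter the order of the groups. Sult2a8, which sulfates bile acids in mouse liver, was the most abundant Sult2 gene and fell in both mutants. It had 78.2, 75.2 and 68.2 CPM in tKO and 84.3, 87.6 and 81.0 in dKO libraries, against 137, 139 and 145 in WT libraries, and fell by 0.93 ± 0.0537 in tKO and by 0.74 ± 0.0531 in dKO.

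Sult3a1 and Sult5a1 were low in both mutants and lower in tKO than in dKO. Sult3a1, an amine sulfotransferase of chromosome 10, had 0.310, 0.312 and 0.203 CPM in tKO, 1.07, 0.645 and 1.40 in dKO and 11.0, 6.59 and 7.91 in WT libraries. It fell by 4.88 ± 0.334 in tKO (adjusted p = 1.80e-22), by 3.01 ± 0.258 in dKO (adjusted p = 2.20e-17) and by 1.87 ± 0.532 in tKO against dKO (adjusted p = 0.00429) by edgeR, on 8 counts in all of tKO. Sult5a1, of chromosome 8, had 1.24, 0.312 and 0.915 CPM in tKO, 1.71, 1.29 and 2.37 in dKO and 11.6, 12.3 and 13.3 in WT libraries. It fell by 3.89 ± 0.242 in tKO and by 2.79 ± 0.209 in dKO. The difference between the mutants for Sult5a1 (−1.11 ± 0.358) lost its call without dKO library 6 (adjusted p = 0.119) or without tKO library 8 (adjusted p = 0.141).

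The Sult1 genes, which sulfate phenols, catecholamines, thyroid hormone and estrogens, changed little. Sult1a1 rose in dKO (0.36 ± 0.0576) and was 0.10 ± 0.0585 in tKO, which did not pass. Sult1d1 fell in tKO (−0.27 ± 0.0693), with 59.6, 50 and 47.8 CPM against 61.4, 60.6 and 67.6 in WT libraries. Sult1e1, the estrogen sulfotransferase, fell in tKO (−0.52 ± 0.189, adjusted p = 0.0174, edgeR) although its tKO libraries (3.33 to 6.60 CPM) overlapped the WT libraries (5.51 to 7.78). Sult1b1 passed in no hepatocyte comparison. As markers of sex, Xist was not listed in any hepatocyte file and Ddx3y had 1 count in all 9 libraries, while liver libraries had 12394 to 29817 Xist counts and at most 6 counts of any Y-linked gene searched. Sex was not tested as a source of the Sult2a and Sult3a1 values.

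**Figure D4:**
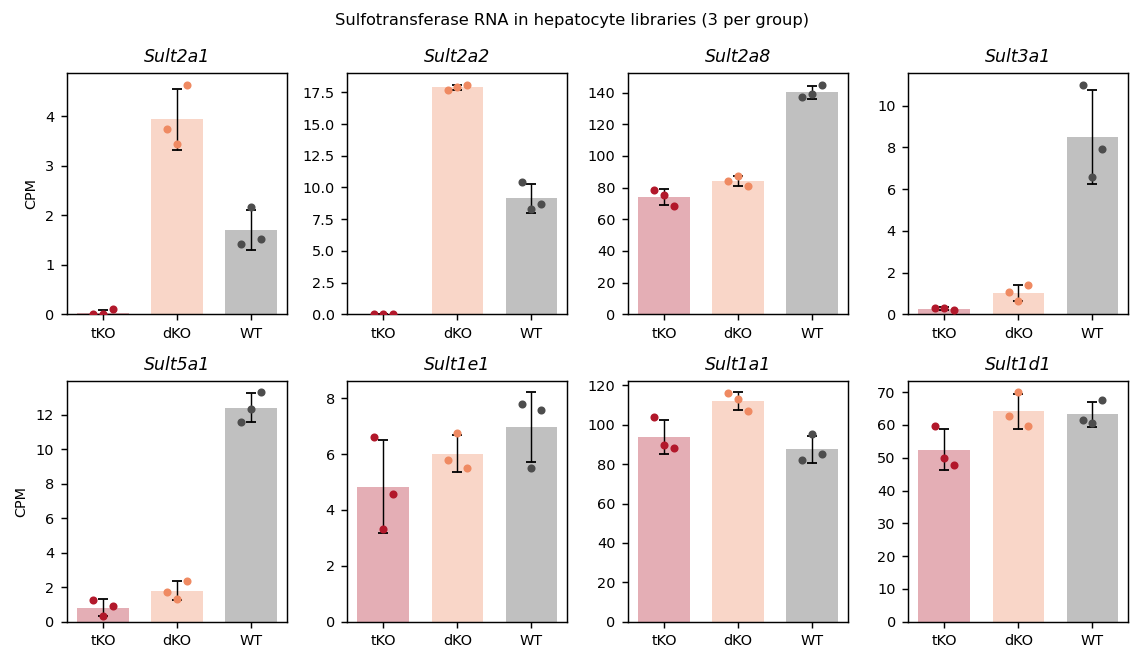
CPM of 8 sulfotransferase genes in hepatocytes, tKO, dKO and WT from left to right; points are libraries, bars are means and error bars are SD (n = 3 per group), and each panel has its own y axis. Sult2a1 and Sult2a2 are near or at 0 in tKO and highest in dKO, Sult2a8, Sult3a1 and Sult5a1 are highest in WT, and the Sult1 genes differ less.

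Cofactor supply and regulators gave a mixed picture in hepatocytes. Over all tested genes, 25.6% rose and 21.8% fell in tKO and 24.0% rose and 20% fell in dKO against WT, which is the background for the counts of each supporting list. Of 11 tested glutathione supply genes, 3 rose and 5 fell in tKO and 2 rose and 4 fell in dKO against WT, with medians of −0.11 and −0.09. Gclc, the catalytic subunit of the rate-limiting enzyme of glutathione synthesis, had 1586, 1399.7 and 1466 CPM in tKO and 1148, 1173 and 1165 in dKO libraries, against 2385, 2336 and 2424 in WT libraries. Gclc fell by 0.68 ± 0.0357 in tKO and by 1.04 ± 0.0360 in dKO against WT. It rose by 0.35 ± 0.0360 in tKO against dKO, where Gstm3 and Gsta2 were higher too. Against WT, by contrast, Gstm3 and Gsta2 rose in both mutants while Gclc fell in both. Gss, the second enzyme of the pathway, rose in tKO (0.52 ± 0.0471). Of 7 UDP-glucuronate supply genes, 2 rose and 3 fell in each mutant, and Ugdh, which makes UDP-glucuronate, fell by 0.38 ± 0.0369 in tKO and by 0.38 ± 0.0370 in dKO. Of 6 PAPS supply genes, 0 rose and 1 fell in tKO (Slc35b2, the Golgi PAPS carrier, −0.30 ± 0.0813), and 1 rose and 1 fell in dKO.

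Of 13 other conjugating enzymes, 2 rose and 6 fell in tKO and 3 rose and 3 fell in dKO, with the nicotinamide methyltransferase Nnmt (−0.86 ± 0.0812 in tKO, −0.90 ± 0.0823 in dKO) lower in both. The lowest value of this list in tKO was −1.42, and 1 gene other than Nnmt fell at least 2-fold there. Of 8 deconjugating enzymes, 5 rose and 1 fell in tKO and 4 rose and 0 fell in dKO, among them the sulfatases Arsa (1.31 ± 0.0633 in tKO, 0.83 ± 0.0660 in dKO) and Sts, the steroid sulfatase (0.68 ± 0.0728 and 0.78 ± 0.0725). Of 8 efflux pumps, 5 rose and 1 fell in tKO and 3 rose and 3 fell in dKO, with Abcb1a (1.17 ± 0.0612 and 0.81 ± 0.0634) and Abcc1 (0.87 ± 0.0807 and 0.99 ± 0.0801) higher in both and Abcc3 lower. Of 14 regulators, 6 rose and 3 fell in tKO and 6 rose and 4 fell in dKO. Nfe2l2 rose by 0.27 ± 0.0460 in tKO and by 0.30 ± 0.0461 in dKO, Ahr by 0.28 ± 0.0561 and 0.51 ± 0.0553, and Nr1i2 by 0.68 ± 0.150 in tKO. Over the 14 regulators, log2 fold changes ran from −1.24 to 0.68 in tKO and from −0.51 to 0.67 in dKO. In tKO 1 regulator fell at least 2-fold, a larger change than any rise in the list.

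In liver no member passed in SMSrKO against WT. The 8 hepatocyte markers summed to 79157 to 88649 CPM in SMSrKO livers, against 59601 to 69783 CPM in WT livers. In SMSrKO and WT livers, the 5 erythroid markers had median sums of 39.7 and 121 CPM, the 6 neutrophil markers 2.05 and 15.0 CPM and the 8 macrophage markers 635 and 941 CPM, with 0 of these markers called by edgeR and 4, 1 and 0 of them lower at an unadjusted p under 0.05. The part of these cells in the values below was not tested. WT library 1, the deepest at 47351126 counts, lay apart on the first principal component of log2 CPM (28.5% of the variance), at 48.7, while the other WT livers lay at 9.1 to 15.3 and the SMSrKO livers at −29.4 to −6.83. Of 54 members tested, 0 rose and 0 fell at an adjusted p under 0.05 (edgeR, over 15820 genes, of which 0.120% rose and 0.114% fell), and the median log2 fold change was 0.09, against −0.012 over all genes. At an unadjusted p under 0.05, 6 members were higher and 5 lower, where 5.97% of all genes were higher and 7.15% lower. The 4 SMSrKO libraries lay all above the 4 WT libraries for 2 members (3.79% of all genes) and all below for 1 (4.32%). Without WT library 1, 0 members rose and 0 fell as well. DESeq2 called 1 member higher (Ugt2a3) and 2 lower (Gstp1 and Gstp2).

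The smallest p belonged to Ugt2a3, with 192, 197, 213 and 167 CPM in SMSrKO livers, against 154, 137, 153 and 146 CPM in WT livers (log2 0.38 ± 0.0958, adjusted p = 0.15). Gsto1 likewise did not overlap, at 89.7 to 95.2 CPM in SMSrKO and 70.2 to 88.5 in WT livers (0.22 ± 0.0835, adjusted p = 0.309). Both were higher in 4 of 4 SMSrKO libraries. Without WT library 1, Ugt2a3 stood at 0.40 (adjusted p = 0.0979). Gstp1 had 77.7, 92.4, 85.1 and 113 CPM in SMSrKO livers, against 139.8, 149, 105 and 201 CPM in WT livers, which overlap in 1 library (−0.69 ± 0.189, adjusted p = 0.175). Gstp2 had 0.869 to 1.35 CPM in SMSrKO and 1.54 to 2.74 in WT livers (−0.88 ± 0.241, adjusted p = 0.175). Gstm3, the gene with the largest rise in hepatocytes, had 8.91, 18.1, 8.56 and 9.95 CPM in SMSrKO livers, against 26.5, 12, 22.2 and 19.8 CPM in WT livers (−0.82 ± 0.300, adjusted p = 0.295). Sult1a1 (0.49 ± 0.174), Sult1b1 (0.42 ± 0.165), Gstt2 (0.63 ± 0.249), Gstm4 (−0.33 ± 0.125) and Ugt2b37 (−0.73 ± 0.308) had unadjusted p under 0.05 and adjusted p of 0.278 to 0.357, and their groups overlapped.

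The sulfotransferases that were at or near 0 in tKO hepatocytes were counted in every liver library. Sult2a2 had 122, 331, 245 and 208 CPM in SMSrKO livers, against 194, 192, 268 and 188 CPM in WT livers (0.11 ± 0.266, adjusted p = 0.89). The 5 near-identical Sult2a genes summed to 511 ± 186 CPM in SMSrKO and 505 ± 109 in WT livers (SD, n = 4 each), a log2 difference of 0.02 ± 0.251. Sult3a1 varied widely within both groups, with 48.9, 4.63, 22.5 and 6.09 CPM in SMSrKO livers, against 25.8, 2.68, 6.47 and 1.57 CPM in WT livers (1.14 ± 1.03, adjusted p = 0.675). Ugt1a5 was uneven in WT livers, with 21.6 to 40.2 CPM in SMSrKO livers, against 27.6, 9.84, 113 and 12 CPM in WT livers. Gst genes held 54.8% of member TPM in SMSrKO and 57.9% in WT livers, Ugt genes 23.2% and 22.3%, and Sult genes 22.0% and 19.8%. Of the supporting genes, Slc35d2, a nucleotide sugar carrier, rose (0.90 ± 0.137, adjusted p = 0.0351) and Arsb, a lysosomal sulfatase, fell (−0.80 ± 0.104, adjusted p = 0.0149). Among 10 tested glutathione supply genes, 6 PAPS supply genes, 14 other conjugating enzymes, 8 efflux pumps and 14 regulators, 0 passed. The libraries of Cth, an enzyme of cysteine synthesis, did not overlap (396 ± 74.2 CPM in SMSrKO, 175 ± 51.2 in WT, SD, n = 4 each, adjusted p = 0.068).

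**Figure D5:**
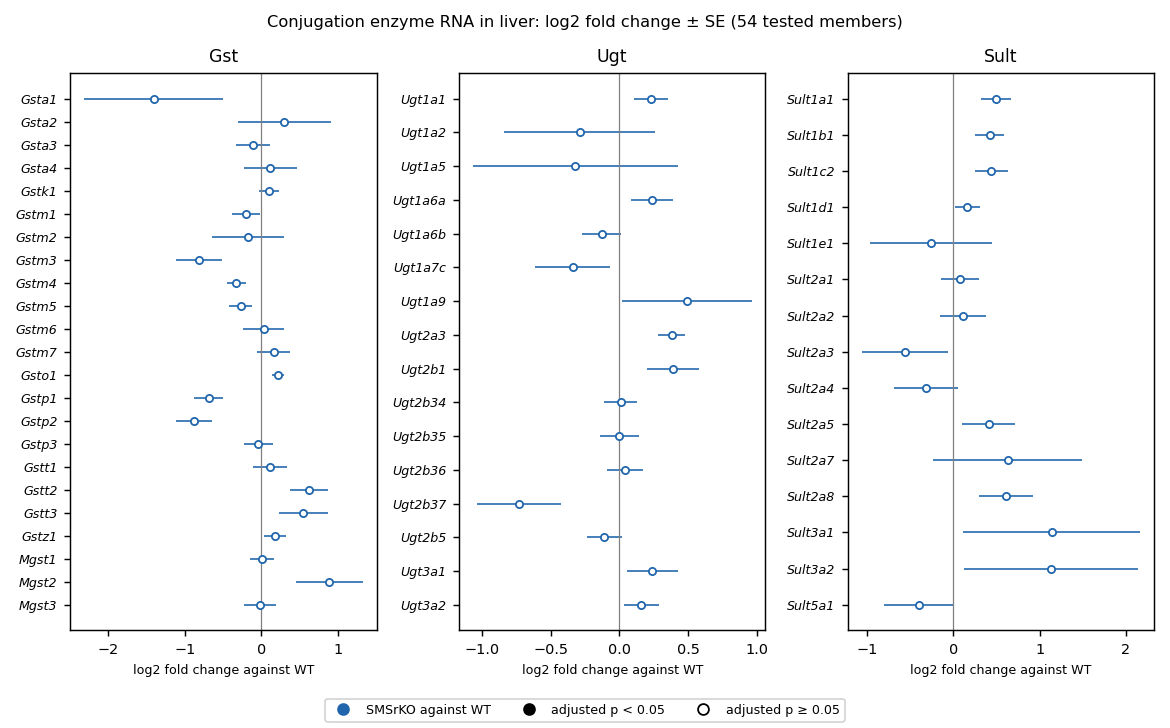
Log2 fold change ± SE of SMSrKO against WT liver for the 54 tested members, 4 libraries per group; open points have an adjusted p of at least 0.05. Every point is open, and the widest error bars belong to Sult3a1, Sult3a2, Gsta1, Sult2a7 and Ugt1a5.

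Members outside the tests were low. In hepatocytes 10 members had counts but too few to be tested (Gsto2, Sult1c2, Sult2a5, Sult2a7, Sult2b1, Sult3a2, Sult4a1, Sult6b1, Sult6b2 and Ugt1a7c), with group means of at most 1.12 CPM, and 7 were not listed (Gstt4, Mgst2, Sult2a3, Sult2a4, Sult2a6, Ugt1a2 and Ugt1a8). Sult2a7 had 1 count in tKO, 1 in dKO and 12 in WT libraries. In liver 10 members were too low (Gsto2, Gstt4, Sult2a6, Sult2b1, Sult4a1, Sult6b1, Sult6b2, Ugt1a10, Ugt1a8 and Ugt2b38), with group means of at most 1.75 CPM. The liver value of Sult2a6 came mostly from a single SMSrKO library with 6.56 CPM.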

How the data were processed

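For liver, the authors deposited whole-number counts per gene and a TPM table. For hepatocytes, the deposited files gave expected counts and FPKM values per gene, and genes a file did not list were taken as 0. The submitters' processing notes name Trimmomatic 0.36, STAR 2.5.2b, Bowtie2 2.2.5, DESeq2 1.30.1, GRCm38 and mm10. Neither the strand setting nor the experiment that each tool served is stated in the sources read here. Overlapping or antisense genes may therefore share reads.

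Expected counts were rounded, as 6.25% of them were not whole. The main test was edgeR's quasi-likelihood test (edgeR 4.0.16, R 4.3.3, robust, TMM scaling, genes kept by filterByExpr at a minimum count of 10), with 1 fit of the 8 liver and 1 fit of the 9 hepatocyte libraries. Benjamini-Hochberg adjustment covered every gene tested, and 0.05 was the threshold. Errors of log2 fold changes are SE. CPM uses the TMM-scaled totals, except in the sums of cell type markers, which use the unscaled library totals. DESeq2 1.42.0, other scalings, no filter, summed near-identical genes, other dispersions, fits of the compared groups alone and left-out libraries were alternatives.

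Near-identical members had at least 90% identity of the coding sequence (GENCODE M21, GRCm38), plus the Ugt1a genes. Protein sequences were not used here. Promoters came from RefSeq (GRCm38.p6), which matched 56 of 64 members. Intervals and floors (3 counts) cover counting error only. The members, lists and tests were chosen with earlier results of these data known. Named members were up to 12 higher and 12 lower calls with the largest change, at least 5 CPM and no overlap, the highest of each subfamily, the 10 with the smallest p where few passed, near-identical partners, and up to 4 genes per list. Other members are named to account for all, after their values were seen.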

Additional observations from a re-analysis of the deposited data

Results flagged for a closer look

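In liver groups of 4 libraries, 4 values of named members stood apart from the other 3 by Dixon's criterion, among 62 groups checked. Members not named by the rule were not checked, among them Sult2a7, with 42.4 CPM in WT library 1 and 2.9 to 6.4 in the other WT libraries. Chance flags about 1 in 20 groups. Gstm3 in SMSrKO library 6 had 18.1 CPM, while the other SMSrKO libraries had 8.56 to 9.95. Gstk1 in WT library 3 had 120.1 CPM (others 87.2 to 89.2), and Sult2a2 in the same WT library had 268 CPM (others 188 to 194). Sult4a1 in WT library 1 had 1.53 CPM (others 0.0331 to 0.121). Groups of 3 hepatocyte libraries were not checked this way.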

How the results depend on the processing

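No paired analysis was possible because the groups compared share no replicate numbers in the labels. Counts of members called kept within 1.5 times of the main count under relative log expression scaling, library totals alone, no filter, summed near-identical genes and, in hepatocytes, only the compared groups. In DESeq2, liver had 1 member higher and 2 lower, against 0 and 0. With the liver dispersion, members called higher and lower were 6 and 9 in tKO against WT, 6 and 6 in dKO against WT, and 3 and 3 in tKO against dKO. Of the named members, Gstm3, Sult2a1, Sult2a2 and Sult3a1 were called in all 3 hepatocyte comparisons with it. Leaving out each library gave 0 to 0 higher and 0 to 0 lower in liver, 14 to 17 higher and 20 to 21 lower in tKO against WT, 13 to 14 and 15 to 19 in dKO against WT, and 12 to 15 and 11 to 17 in tKO against dKO. Depth limits the genes with few counts, such as Sult2a1 in tKO libraries, where single counts decide the fold.

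Direction changed as follows, and the cause was not tested. A summed set has a single value, which follows its most abundant genes and is no new estimate for a minor one. In dKO against WT it was −0.20 for the set of Ugt1a6a and Ugt1a6b and 0.04 for that of Ugt2b38 and Ugt2b5. In tKO against dKO it was −0.17 for the set of Ugt1a9, −0.03 for that of Gstp2 and 0.10 for that of Ugt2b37. In liver it was 0.02 for the set of Sult2a3 and Sult2a4. Library totals alone gave −0.06 for Mgst1 in liver and 0.00 for Gsto1 in tKO against WT. Leaving out each library in turn gave, in liver, −0.26 to 0.09 for Gsta3, −0.01 to 0.34 for Gstt1, −0.07 to 0.11 for Mgst1, −0.10 to 0.20 for Sult2a1, −0.13 to 0.31 for Sult2a2 and −0.19 to 2.07 for Sult3a2. In tKO against WT it gave −0.06 to 0.01 for Gsto1. In tKO against dKO it gave −0.08 to 0.31 for Gstp2, −0.02 to 0.05 for Ugt2a3 and −0.14 to 0.00 for Ugt3a1.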
